A study of Mus musculus with 8 samples.

Results

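Intermediate mesoderm was taken as every cell that the authors' combined annotation calls by that name, which gave 2389 of 28723 cells. Of these, 1444 were Eomes-KO cells and 945 were WT host cells. By number of cells it ranked 3 among 42 combined labels, 2 in Eomes-KO and 6 in WT host. The cells came from chimeric mouse embryos that the labels give as E8.5. Embryonic stem cells (ESC) of a male line, with a loss-of-function allele of Eomes and a tdTomato reporter, had been injected into WT C57BL/6 blastocysts. Embryos were pooled, dissociated and sorted into tdTomato+ Eomes-KO cells and tdTomato- WT host cells, which gave 4 libraries of each from pools made with independent ESC clones. Both groups therefore grew in the same embryos, but no library of injected WT ESC was analysed here, so loss of Eomes and origin from cultured ESC cannot be told apart.

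Intermediate mesoderm lies between the paraxial mesoderm, which forms the somites, and the lateral plate, and it gives rise to the kidneys, the gonads and their ducts. Osr1 marks its early territory and that of the neighbouring lateral plate, Pax2 and Lhx1 mark the nephric lineage that forms within it, and Wt1 is used later by kidney and gonad progenitors. Eomes is a T-box transcription factor of the primitive streak, needed for the anterior and earliest mesoderm, while more posterior mesoderm is formed under other T-box factors, among them Brachyury. The deposited table holds 1 row per cell with labels and quality measures and no values for single genes, so none of these markers could be read. The name of the cells could only be set beside the other labels that the authors transferred from a reference atlas of mouse gastrulation, and these are not an independent check of it.

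The authors built the combined annotation from the original and the extended atlas labels, so its overlap with either is fixed in part by how it was made. The original label was intermediate mesoderm in 2380 of 2389 cells, or 99.6%, and no cell with that original label lay outside. The remaining 9 cells were originally mixed mesoderm with the extended label intermediate mesoderm, and all 9 were Eomes-KO cells. In the whole series 31 cells had the original label mixed mesoderm, and their genotypes were not counted. The label score gives how many of a cell's 15 nearest atlas cells have the same label, as a fraction, and it was at least 0.5 in 2284 cells, or 95.6%. All 15 neighbours carried the label in 16.7% of intermediate mesoderm cells, against 45.4% of other epiblast-derived cells with their own labels. The extended atlas labels, which divide the embryo into finer types, split the cells further. Of the 2389 cells, 1054 (44.1%) kept the name intermediate mesoderm. A further 776 (32.5%) were called presomitic mesoderm, the unsegmented tissue behind the somites, and 287 (12.0%) paraxial mesoderm. Limb mesoderm had 115 cells (4.81%), kidney primordium, the forming nephric tissue, 65 (2.72%), lateral plate mesoderm 48 (2.01%) and somitic mesoderm 32 (1.34%). The last 12 cells fell into 5 rarer labels. The combined label thus took in cells that the finer annotation places on both sides of the intermediate mesoderm. Conversely, the extended label intermediate mesoderm was also carried by 395 somitic mesoderm and 86 caudal mesoderm cells and 1 nascent mesoderm cell.

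Libraries differed in size and depth. The 4 Eomes-KO libraries held 602, 1153, 3346 and 3465 cells and the 4 WT host libraries 2414, 3791, 5819 and 8133, and each is named here by this number. Intermediate mesoderm cells summed to between 2505346 and 9086676 UMIs (unique transcript counts) per Eomes-KO library and between 681219 and 2842867 per WT host library. Cell barcodes were nearly all distinct, with 80 present in 2 libraries among 28643, and 11 intermediate mesoderm cells carried such a barcode. The library names do not show which pairs of libraries came from the same pool, so libraries were compared unpaired, 4 against 4. A p-value thus sets a genotype difference against the spread between libraries, which here includes any difference between pools.

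Intermediate mesoderm was more frequent in Eomes-KO cells. It made up 14.0%, 19.0%, 15.5% and 18.0% of epiblast-derived cells in the Eomes-KO libraries, in the order of their sizes above, from 84, 218, 519 and 623 cells. In the WT host libraries it made up 3.67%, 3.43%, 5.10% and 5.83%, from 88, 129, 263 and 465 cells. The lowest Eomes-KO library thus lay far above the highest WT host library, and their exact binomial 95% intervals (11.3% to 17.0% and 5.32% to 6.37%, Clopper-Pearson, counting error only) did not meet. The mean share was 16.6% ± 2.27 in Eomes-KO and 4.51% ± 1.15 in WT host libraries (SD, n = 4 each). On cells counted per library this was a log2 fold change of 1.88 ± 0.28 (SE), or 3.68-fold (edgeR quasi-likelihood test, adjusted p = 2.7e-05, Benjamini-Hochberg over 33 labels). Across those labels 21.2% were called higher in Eomes-KO and 69.7% were called in either direction. Such a share depends on which other cells are counted, since a lineage that is depleted raises the shares of all that remain. The difference passed under every scaling tried and was 0.91 on the log2 scale under the strictest, the ratio size factors of DESeq2, which moved the median of all labels by -0.90.

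**Figure D1:**
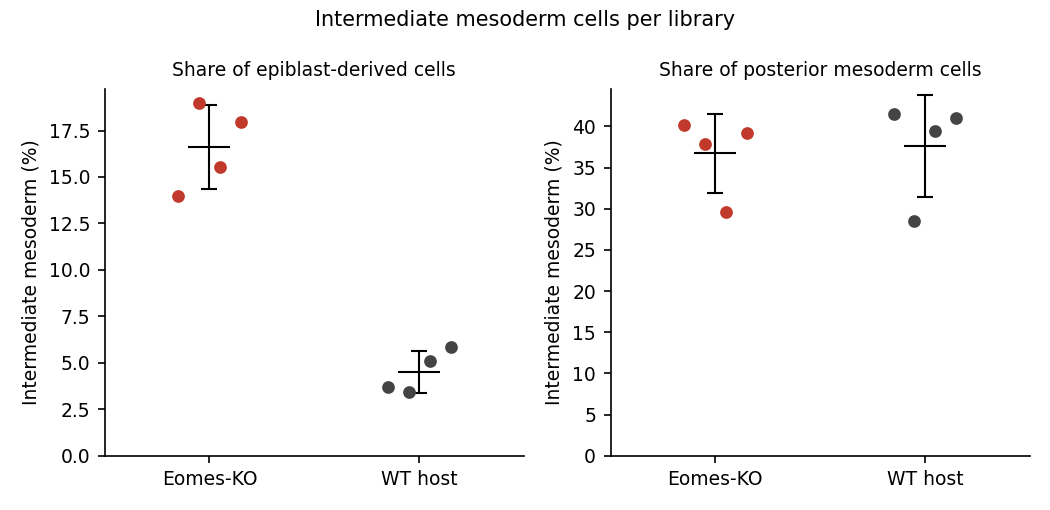
Percent of epiblast-derived cells (left) and of posterior mesoderm cells (right) labelled intermediate mesoderm. Points are libraries, 4 Eomes-KO in red and 4 WT host in grey, and bars are the mean and SD. The 2 groups are apart on the left, with means of 16.6% and 4.51%, and overlap on the right, with means of 36.7% and 37.6%.

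Relative to its neighbours in the posterior mesoderm the share of intermediate mesoderm overlapped between genotypes. Posterior mesoderm was here the sum of intermediate, lateral plate, caudal and somitic mesoderm. Of it, intermediate mesoderm made up 40.2%, 37.9%, 29.6% and 39.2% in the Eomes-KO libraries, against 41.5%, 28.5%, 39.4% and 41.0% in the WT host libraries. The means were 36.7% ± 4.84 and 37.6% ± 6.16 (SD, n = 4 each), and the low library of each group, at 29.6% and 28.5%, lay apart from its other 3.

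Ratios within a library do not depend on lineages outside the pair. Lateral plate mesoderm, which forms the body wall, limb buds and gut wall, was about as frequent as intermediate mesoderm, with a mean log2 ratio of intermediate to lateral plate cells of -0.20 ± 0.42 in Eomes-KO and 0.34 ± 0.47 in WT host libraries (difference -0.54, exact permutation test, adjusted p = 0.17 over 4 ratios). For caudal mesoderm, the posterior tissue near the tail bud, the log2 ratio was 1.70 ± 0.56 in Eomes-KO and 2.34 ± 0.61 in WT host libraries (exact test, adjusted p = 0.17). Neither difference passed, and in both the groups overlapped.

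Against somitic mesoderm and neuromesodermal progenitors (NMP), which feed the trunk with spinal cord and somite cells, the ratios of intermediate mesoderm were higher in most Eomes-KO libraries. There were 2.60, 4.60, 2.80 and 11.7 intermediate mesoderm cells per somitic mesoderm cell in the Eomes-KO libraries, against 1.46, 0.878, 1.72 and 2.64 in the WT host libraries, with 0.5 added to each count. Per NMP there were 3.93, 4.41, 2.74 and 7.47 in the Eomes-KO libraries, against 0.917, 0.624, 2.34 and 2.17 in the WT host libraries. The groups met narrowly for somitic mesoderm and did not overlap for NMP. The log2 differences were 1.52 for somitic mesoderm and 1.73 for NMP (exact two-sided p = 0.057 and 0.029, the second being the smallest that 4 against 4 libraries allow), and neither passed after adjustment over the 4 ratios (exact test, adjusted p = 0.11 each). On its own, a ratio at the smallest p cannot pass this adjustment, so not passing says little about NMP. Among cells with at least 10000 UMIs the difference was 0.85 for somitic mesoderm and 2.11 for NMP (exact test, adjusted p = 0.53 and 0.11). In the same edgeR fit as above, lateral plate and caudal mesoderm had log2 fold changes of 2.43 and 2.45 in their shares, beside 1.88 for intermediate mesoderm. The values were 0.49 for somitic mesoderm and 0.15 for NMP, which did not pass (edgeR, adjusted p = 0.29 and 0.71). The combined label paraxial mesoderm was lower in Eomes-KO by a log2 fold change of -5.42 (edgeR, adjusted p = 4.2e-08).

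The make-up of intermediate mesoderm by extended label differed between genotypes. Of 7 extended labels with at least 10 cells, 5 passed the test within intermediate mesoderm, so that 71.4% were called in either direction, 28.6% higher and 42.9% lower in Eomes-KO (edgeR quasi-likelihood test on cells per library, with intermediate mesoderm cells as the library size). With so few labels, whose shares sum to the whole, a higher share of one forces lower shares of others. Presomitic and intermediate mesoderm took a larger share, and paraxial mesoderm, limb mesoderm and kidney primordium a smaller one.

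Presomitic mesoderm made up 41.7%, 36.7%, 41.2% and 39.6% of intermediate mesoderm cells in the Eomes-KO libraries, against 17.0%, 26.4%, 14.8% and 24.1% in the WT host libraries. Every Eomes-KO library was above every WT host library. The log2 fold change was 0.94 ± 0.23 (SE), or 1.91-fold (edgeR, adjusted p = 0.00083 over 7 labels), and it was 1.75 with TMM scaling (edgeR, adjusted p = 0.026).

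The share that kept the name intermediate mesoderm was 45.2%, 56.4%, 45.9% and 50.7% in the Eomes-KO libraries, against 40.9%, 18.6%, 42.6% and 35.9% in the WT host libraries. The groups did not overlap, but the gap between 45.2% and 42.6% was small and the WT host library of 3791 cells stood low. The log2 fold change of 0.51 ± 0.23 (SE) was just past the threshold (edgeR, adjusted p = 0.048). Leaving out the Eomes-KO library of 602, 1153, 3346 or 3465 cells gave values of 0.54, 0.45, 0.56 and 0.50 that did not pass. Nor did it pass without the WT host library of 2414 or 8133 cells, with values of 0.57 and 0.53 (edgeR, adjusted p between 0.013 and 0.14 over all 8 such fits).

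Paraxial mesoderm was the extended label with the smallest p. It made up 8.33%, 2.29%, 4.82% and 5.78% in the Eomes-KO libraries, against 22.7%, 17.1%, 28.1% and 21.1% in the WT host libraries. No Eomes-KO library came near the lowest WT host library, and the log2 fold change was -2.16 ± 0.31 (SE; edgeR, adjusted p = 1.7e-06). With TMM scaling over the 7 labels the value was -1.35 and did not pass (edgeR, adjusted p = 0.14).

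Limb mesoderm, a name for lateral mesoderm of the prospective limb buds, made up 0.787% ± 0.909 of intermediate mesoderm cells in Eomes-KO libraries, whereas it was 11.3% ± 5.96 in those of WT host (SD, n = 4 each). There were 0, 0, 8 and 10 such cells in the Eomes-KO libraries, against 7, 26, 20 and 44 in the WT host libraries. The Eomes-KO libraries without one held 84 and 218 intermediate mesoderm cells, which allow shares of up to 3.57% and 1.38% (3 cells), both below the lowest WT host share of 7.60%. The log2 fold change was -3.23 ± 0.57 (SE; edgeR, adjusted p = 2.2e-05), and -2.81 without the WT host library of 3791 cells, where the share was 20.2%.

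Kidney primordium cells were few in both groups. There were 1, 1, 8 and 5 in the Eomes-KO libraries, or 1.19%, 0.459%, 1.54% and 0.803% of intermediate mesoderm. The WT host libraries held 4, 12, 9 and 25, or 4.55%, 9.30%, 3.42% and 5.38%. Every Eomes-KO share was below every WT host share, with a log2 fold change of -2.39 ± 0.62 (SE; edgeR, adjusted p = 0.0013). Among cells with an extended label score of at least 0.5 the value was -2.38 and missed the threshold (edgeR, adjusted p = 0.053). The other 2 labels overlapped between groups. Lateral plate mesoderm took 2.26% ± 0.859 of Eomes-KO cells and 2.17% ± 1.21 of cells from WT host, and somitic mesoderm 1.24% ± 1.06 and 2.46% ± 2.04 (SD, n = 4 each; edgeR, adjusted p = 0.97 and 0.62).

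**Figure D2:**
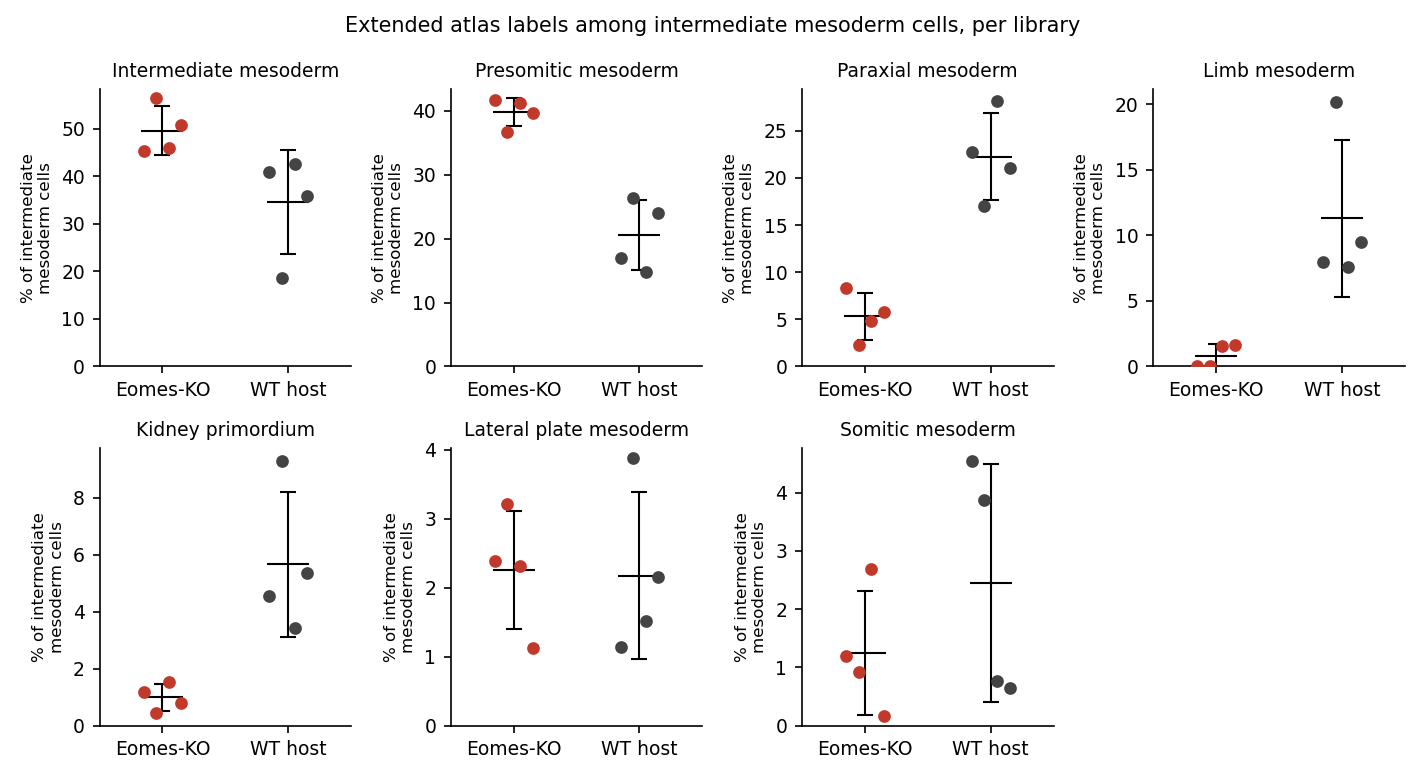
Percent of intermediate mesoderm cells with each of 7 extended atlas labels, 1 panel per label with its own axis. Points are libraries, 4 Eomes-KO in red and 4 WT host in grey, and bars are the mean and SD. Presomitic mesoderm averages 39.8% in Eomes-KO and 20.6% in WT host libraries, and paraxial mesoderm 5.31% and 22.2%.

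Counted against all epiblast-derived cells in place of intermediate mesoderm, none of the 3 labels lower within intermediate mesoderm passed the adjusted threshold. This fit was chosen after the data were seen. It held the other combined labels and intermediate mesoderm split by extended label, 39 in all, of which 64.1% were called, 23.1% higher and 41% lower in Eomes-KO. The log2 fold change was -0.30 ± 0.45 for paraxial mesoderm, -1.38 ± 0.65 for limb mesoderm and -0.55 ± 0.61 for kidney primordium (SE; edgeR, adjusted p = 0.57, 0.069 and 0.46). It was 2.81 ± 0.37 for presomitic and 2.37 ± 0.40 for intermediate mesoderm (SE; edgeR, adjusted p = 4.9e-06 and 7.3e-05), and 1.80 ± 0.64 for lateral plate mesoderm (SE; edgeR, adjusted p = 0.019). Thus 3 of the 7 labels were higher in Eomes-KO and none was lower beyond the threshold, with somitic mesoderm at 1.30 ± 0.87 (SE; edgeR, adjusted p = 0.20).

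**Figure D3:**
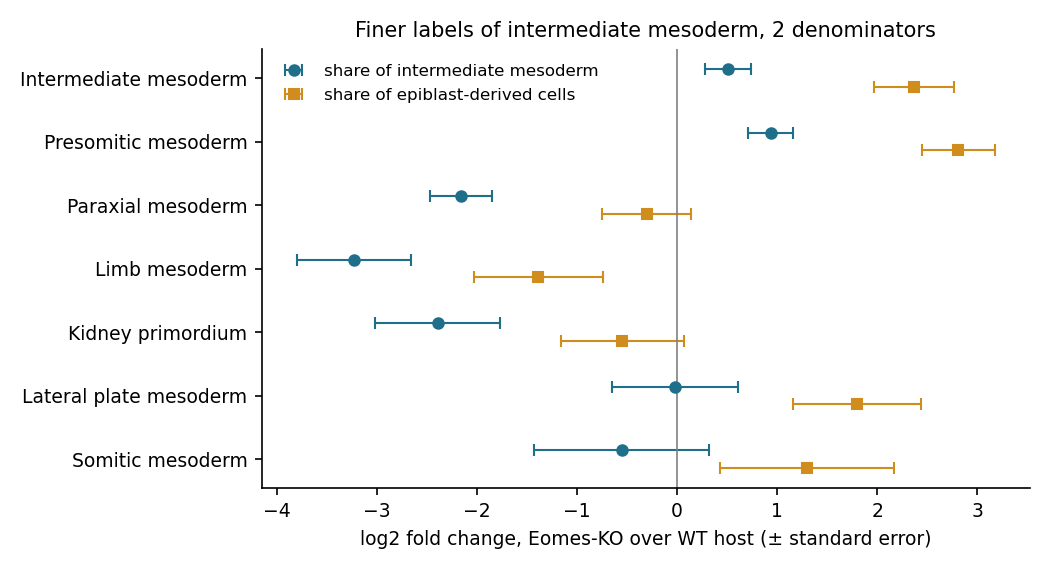
Log2 fold change of each extended label, Eomes-KO over WT host, with its standard error, as a share of intermediate mesoderm cells (circles) and of epiblast-derived cells (squares). Paraxial mesoderm, limb mesoderm and kidney primordium lie at -2.16, -3.23 and -2.39 in the first and at -0.30, -1.38 and -0.55 in the second.

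Most intermediate mesoderm cells mapped to atlas cells of E8.0. Pooled over libraries, 1364 cells mapped to E8.0, 730 to E8.25 and 207 to E8.5, with 61 at E7.75 and 27 at E7.5. The share at E8.5 was 7.14%, 4.13%, 11.6% and 2.25% in the Eomes-KO libraries, against 9.09%, 16.3%, 11.0% and 12.9% in the WT host libraries. In 3 Eomes-KO libraries it was below every WT host library, while that of 3346 cells lay inside the WT host range. The difference of the means, 6.27% ± 4.06 and 12.3% ± 3.06 (SD, n = 4 each), did not pass (exact permutation test, p = 0.086, adjusted p = 0.17 over 2 stage measures). The mean mapped stage was 8.09 ± 0.037 embryonic days in Eomes-KO and 8.14 ± 0.053 in WT host libraries (difference -0.053, exact test, adjusted p = 0.17), and leaving out the WT host library of 3791 cells gave a difference of -0.028. That library was the furthest on, with 55.8% of cells at E8.25 against at most 34.5% in any other library.

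**Figure D4:**
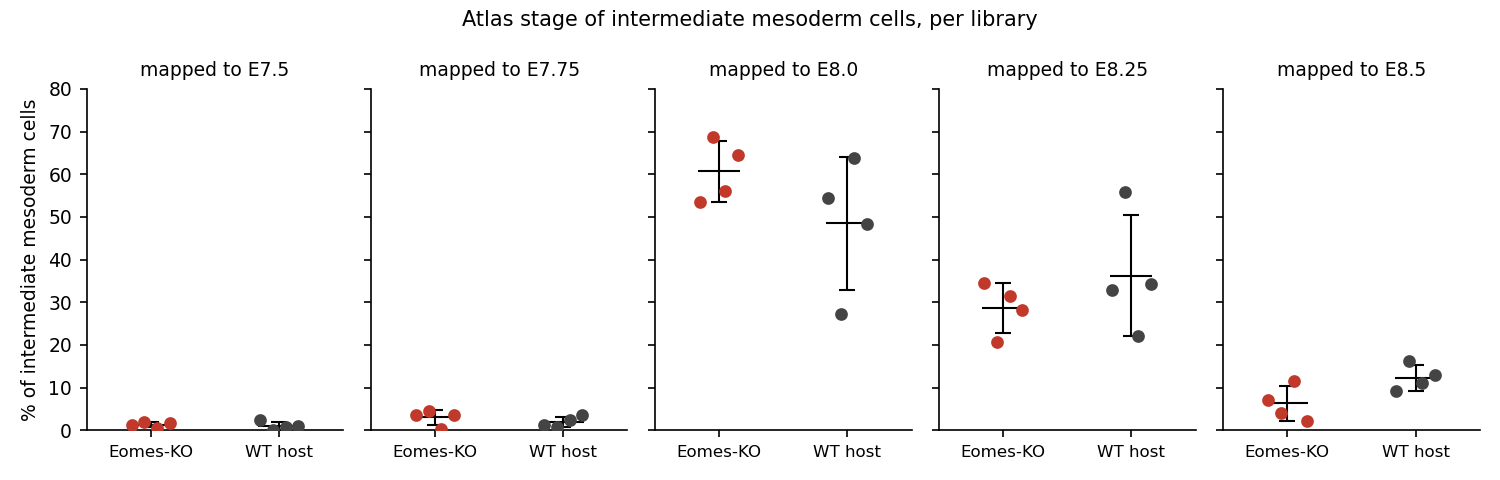
Percent of intermediate mesoderm cells mapped to each atlas stage. Points are libraries, 4 Eomes-KO in red and 4 WT host in grey, and bars are the mean and SD. E8.0 is the main stage in both groups, with averages of 60.7% in Eomes-KO and 48.5% in WT host libraries, and the groups overlap at all 5 stages.

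In both genotypes intermediate mesoderm mapped to slightly earlier stages than the rest of its library. The mean stage of the other epiblast-derived cells was later in every library, and the contrast was -0.082 ± 0.017 days in Eomes-KO and -0.085 ± 0.0056 days in WT host libraries (difference 0.0034, exact test, p = 0.77, added after the data were seen).

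Mapped stage and extended label went together. Both were transferred from the same nearest atlas cells, so this is fixed in part by the stages at which the atlas holds each label. Of cells that kept the label intermediate mesoderm, 82.4% mapped to E8.0, and of limb mesoderm cells 69.6% mapped to E8.5. All 65 kidney primordium cells mapped to E8.25 or E8.5. The labels were therefore compared again within single stages, also after the data were seen. Among cells mapped to E8.0, where only 3 labels had enough cells, paraxial mesoderm took 2.95% ± 2.21 of Eomes-KO cells and 33.8% ± 6.20 of cells from WT host (SD, n = 4 each). Presomitic mesoderm took 29.8% ± 3.23 and 7.81% ± 3.69. Both differences passed within that stage, with log2 fold changes of -2.98 and 1.66 (edgeR, adjusted p = 6.9e-08 and 3.6e-06 over 3 labels). The 3 labels took nearly all cells of that stage, so these differences depend on each other. Among cells mapped to E8.25, kidney primordium took 3.07% ± 1.42 of Eomes-KO cells and 13.5% ± 1.64 of cells from WT host, and limb mesoderm 0.582% ± 0.808 and 10.0% ± 6.27 (SD, n = 4 each). The log2 fold changes were -2.03 and -3.25 (edgeR, adjusted p = 0.0016 and 0.0008 over 7 labels), and 0.74 for presomitic mesoderm (edgeR, adjusted p = 4.0e-05). Paraxial mesoderm did not pass at E8.25, with a value of -0.86 (edgeR, adjusted p = 0.13), and intermediate mesoderm passed at neither stage (edgeR, adjusted p = 0.082 and 0.13).

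Depth per cell differed widely between libraries. Median UMIs per intermediate mesoderm cell were 30849.5, 19710, 17325 and 9182 in the Eomes-KO libraries, against 7944, 9864, 10500 and 5176 in the WT host libraries. Of the Eomes-KO libraries, that of 3465 cells lay within the WT host range and the other 3 above it (exact permutation test, p = 0.086, adjusted p = 0.11 over 5 measures). A cell had a median of 4158 ± 1070 detected genes in Eomes-KO and 2745 ± 490 in WT host libraries (SD, n = 4 each; exact test, adjusted p = 0.11). Mitochondrial transcripts took 1.58% ± 0.309 and 1.68% ± 0.220 of UMIs (exact test, adjusted p = 0.6). The doublet score was 0.248 ± 0.041 in Eomes-KO and 0.198 ± 0.013 in WT host libraries (exact test, adjusted p = 0.11). Among cells with at least 10000 UMIs the same 5 extended labels differed in the same directions, with log2 fold changes between -3.74 for limb mesoderm and 1.05 for presomitic mesoderm. The relative share of intermediate mesoderm was there 2.10 on the log2 scale. This cut lies above the median of the WT host libraries of 2414, 3791 and 8133 cells and of the Eomes-KO library of 3465 cells. It thus removed most intermediate mesoderm cells of these libraries, and depth above it was not matched between genotypes.

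The ribosomal percent of UMIs was 26.8%, 27.9%, 27.8% and 26.6% in Eomes-KO intermediate mesoderm, by library, and 25.6%, 26.6%, 25.1% and 25.0% in that of WT host. The groups did not overlap, though the nearest libraries were almost equal, 26.59% for Eomes-KO against 26.55% for WT host (exact permutation test, p = 0.029, the smallest possible, adjusted p = 0.11). Set against the other epiblast-derived cells of the same library, Eomes-KO intermediate mesoderm was 0.78 ± 0.24 percentage points higher and WT host intermediate mesoderm 0.31 ± 0.27 points lower (exact test, p = 0.029, adjusted p = 0.076 over 8 contrasts). In the same contrast UMIs per cell differed little from the rest of the library, by 0.010 ± 0.069 on the log2 scale in Eomes-KO and -0.057 ± 0.061 in WT host libraries (exact test, adjusted p = 0.37).

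Of the 3 label scores of intermediate mesoderm, none differed between genotypes past the adjusted threshold. The mean original label score of intermediate mesoderm was 0.776, 0.785, 0.786 and 0.804 in the Eomes-KO libraries, against 0.755, 0.740, 0.766 and 0.741 in the WT host libraries. Eomes-KO cells thus had more neighbours of their own label in every library, without overlap (0.788 ± 0.012 and 0.750 ± 0.012, exact permutation test, p = 0.029, adjusted p = 0.086 over 3 scores). Lateral plate, caudal and somitic mesoderm together had the same order of means, 0.804 ± 0.011 for Eomes-KO and 0.790 ± 0.016 for WT host libraries (SD, n = 4 each). All other epiblast-derived cells had the opposite order, between 0.834 and 0.851 in the Eomes-KO libraries and between 0.867 and 0.882 in the WT host libraries. The median score of intermediate mesoderm minus that of the other cells was -0.083 ± 0.064 in Eomes-KO and -0.217 ± 0.033 in WT host libraries (exact test, p = 0.029, adjusted p = 0.076). Set against lateral plate, caudal and somitic mesoderm only, this contrast differed by 0.033 between genotypes in place of 0.133 (exact test, p = 0.66). The extended label score averaged 0.790 ± 0.010 in Eomes-KO and 0.726 ± 0.043 in WT host libraries (exact test, adjusted p = 0.086), the same order as in the other epiblast-derived cells, at 0.812 ± 0.020 and 0.793 ± 0.019. The score of the mapped stage was 0.599 ± 0.012 and 0.617 ± 0.023 (exact test, adjusted p = 0.2). Its median minus that of the other cells was 0.067 in every Eomes-KO library and 0 in every WT host library (exact test, p = 0.029, adjusted p = 0.076). This is a single step of the score, with medians of 0.6 and 0.533 in each Eomes-KO library.

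**Figure D5:**
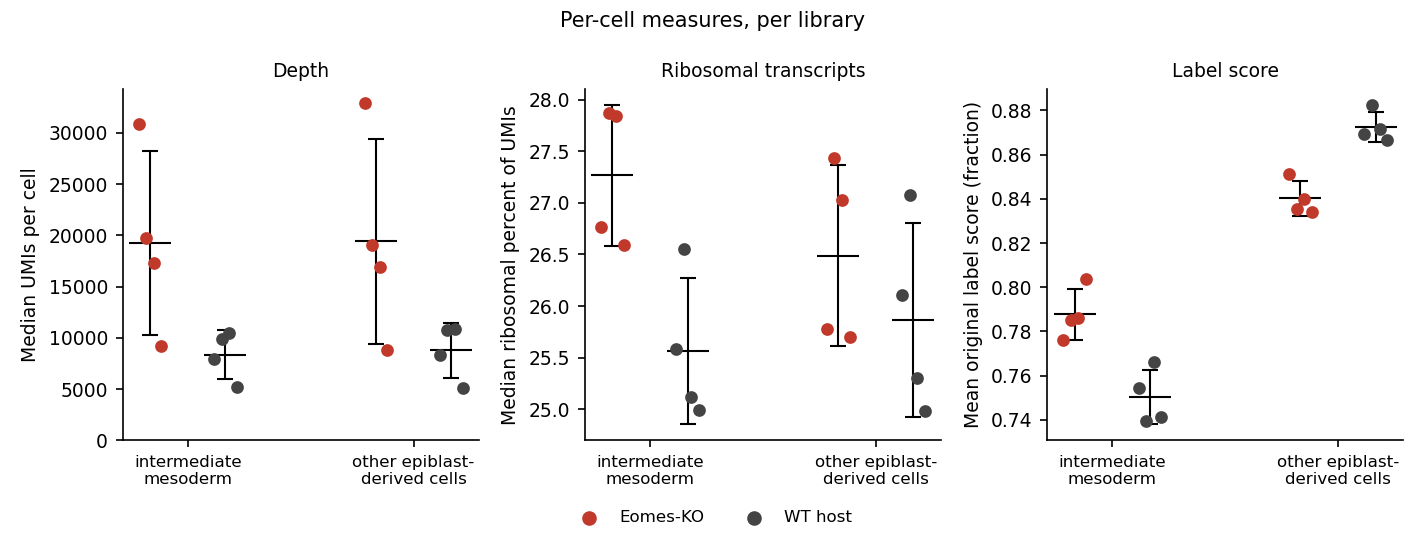
Median UMIs per cell, median ribosomal percent and mean original label score (a fraction of 15 neighbours) of intermediate mesoderm and of the other epiblast-derived cells. Points are libraries, 4 Eomes-KO in red and 4 WT host in grey, and bars are the mean and SD; only the axis of UMIs starts at 0. The label score of intermediate mesoderm averages 0.788 in Eomes-KO and 0.750 in WT host libraries, while the mean over all other epiblast-derived cells is higher in WT host.

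Scores also differed between the extended labels. Pooled over both genotypes, the mean extended label score was 0.859 for intermediate, 0.735 for presomitic, 0.707 for paraxial and 0.626 for limb mesoderm. It was 0.5 for lateral plate mesoderm, 0.490 for somitic mesoderm and 0.465 for kidney primordium. On average under 0.5 of the neighbours of a kidney primordium cell thus carried that name. Intermediate mesoderm scored highest in each genotype, but the order below it differed. Among WT host cells, paraxial mesoderm (0.739) was above presomitic (0.700), and lateral plate mesoderm (0.44) was below kidney primordium (0.456). Among Eomes-KO cells, paraxial mesoderm (0.614) was below limb mesoderm (0.652), and kidney primordium (0.493) was level with somitic mesoderm (0.493).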

How the data were processed

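The deposited table has 1 row per cell of 8 droplet libraries (10x). Reads were processed by the authors in Cell Ranger 6.0.1 against mm10 (named in the submitters' processing notes). They filtered cells by UMIs, genes, mitochondrial and ribosomal share and removed doublets above a score of 0.5. The deposited UMI and gene counts are totals per cell, not normalized. The mitochondrial and ribosomal percent were computed by the authors from each cell's UMIs. The doublet score was deposited by the authors. The deposited label scores are fractions of the 15 nearest atlas cells. The table holds fewer cells than the study states it retained, and no gene counts were analysed here.

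Members, labels and tests were chosen with earlier results of these data known. A library's genotype came from its cells' tdTomato status. Cells were counted per library and label. Visceral, parietal and ExE endoderm and ExE ectoderm were left out of the epiblast-derived denominator, as in the study's methods. Labels with at least 10 cells were tested with edgeR 4.0.16 (glmQLFit, glmQLFTest; R 4.3.3) with genotype as the only term and Benjamini-Hochberg adjustment at 0.05; the study's pool term could not be fitted. Other values were compared by exact two-sided permutation of library values (70 arrangements, scipy 1.17.1). A value at the smallest p of these tests cannot pass adjustment unless other values of its family are as small. Cells were never used as replicates in a test, and the binomial intervals over cells give counting error within a library only. The edgeR code was tested on simulated counts in which few labels changed, which checks the code and not the calls made here. Named were every label with at least 10 intermediate mesoderm cells, every stage and measure, and 5 neighbouring labels. Alternatives used TMM, DESeq2 1.42.0 (ratio and poscounts size factors), limma 3.58.1, other denominators, filters on UMIs, label and doublet scores, and leaving out each library.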

Additional observations from a re-analysis of the deposited data

Results flagged for a closer look

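Of 70 groups of 4 libraries examined, 5 held a library far from the others of its genotype by Dixon's criterion, and chance flags about 1 in 20. The WT host library of 3791 cells accounted for 3 of them. Its share of posterior mesoderm labelled intermediate mesoderm was 28.5%, against 39.4% to 41.5% in the other WT host libraries. Its share of intermediate mesoderm labelled limb mesoderm was 20.2%, against 7.60% to 9.46%. The median original label score of its intermediate mesoderm differed from that of its other epiblast-derived cells by -0.267, against -0.2 in the other 3 WT host libraries. This score moves in steps of 1 of 15 neighbours and the other 3 values tied, so that flag rests on a single step.

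In the Eomes-KO library of 602 cells, UMIs per intermediate mesoderm cell differed from those of other cells by -0.093 on the log2 scale, against 0.033 to 0.052 in the other Eomes-KO libraries. In the WT host library of 5819 cells the doublet score of intermediate mesoderm differed from that of other cells by -0.02, against 0.03 to 0.04 in the other WT host libraries.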

How the results depend on the processing

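The larger share of intermediate mesoderm in Eomes-KO cells passed under every alternative tried, between 0.91 and 2.44 on the log2 scale, and between 1.77 and 2.03 with each library left out in turn. No paired analysis was possible because the library names do not show the embryo pool. The number of extended labels higher in Eomes-KO within intermediate mesoderm, 2 in the report, was 1 with TMM scaling, with DESeq2's ratio size factors, with no filter on rare labels, with an extended label score of at least 0.5, and among cells of E8.0 or of E8.25. It was 1 to 2 with each library left out. The label lost was intermediate mesoderm itself in each case. TMM and the ratio size factors raised the 7 log2 values by a median of 0.74 and 0.42, and no label past the threshold changed direction. The number lower, 3 in the report, was 3 with each library left out. Paraxial mesoderm was lost from it with TMM scaling and among cells of E8.25, and kidney primordium with an extended label score of at least 0.5. The number was 1 among cells of E8.0, where only 3 labels were fitted, and 0 with epiblast-derived cells as the denominator. That denominator also turned the value of lateral plate mesoderm from -0.02 to 1.80, since it asks for another share. The original label score passed among cells with at least 10000 UMIs, with a difference of 0.031 (exact permutation test, adjusted p = 0.043). Exact tests with a library left out cannot go below p = 0.057 and say nothing of stability. The number of cells limits the rarer labels, above all in the Eomes-KO library with 84 intermediate mesoderm cells.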

Other observations

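The table also names the nearest atlas cell of each cell. Eomes-KO intermediate mesoderm cells had 863 different nearest atlas cells and those of WT host 792, of which 220 were shared. The shared ones were 25.5% of those of Eomes-KO and 27.8% of those of WT host cells. They were the nearest atlas cell of 25.3% of Eomes-KO and 30.4% of WT host intermediate mesoderm cells, given here as a description with no test. The same overlap was not computed for other labels or between libraries of the same genotype. The shares therefore do not say whether the genotypes mapped to different atlas cells.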
